A study of Mus musculus with 4 samples.

Results

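The genes examined here encode sensors that recognise foreign or misplaced nucleic acid, with the adaptors and kinases that carry their signal. They were 9 genes chosen by name, *Ddx58*, *Ifih1*, *Dhx58*, *Mavs*, *Cgas*, *Tlr3*, *Tbk1*, *Ikbke* and *Zbp1*, together with the STING gene, which the count table lists as *Tmem173*. Each name occurred in a single row, so the 10 genes were 10 of the 55450 gene rows, and all 10 were among the 16269 genes that passed the filter on low counts. RNA-seq had been performed on MLO-Y4 cells, an osteocyte-like line from mouse bone labelled as wild type, in 2 unloaded and 2 loaded samples. The loaded cells grew on collagen-coated elastic silicone membranes and were stretched equiaxially for 12 h at 0.5 Hz and 20% strain. The unloaded cells spent those 12 h in the system's incubator in an ordinary culture plate, without stretch, so stretching and the plate cannot be told apart. All 4 libraries come from this single line, were made from total RNA after removal of ribosomal RNA, and held between 28941994 and 32185693 counts. Nothing in the labels says whether the replicates were grown independently, so p-values measure the spread between these libraries, which may be technical.

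Cells carry separate routes for foreign RNA and foreign DNA. In the cytosol, RIG-I (*Ddx58*) and MDA5 (*Ifih1*) bind double-stranded RNA and pass the signal to MAVS on mitochondria, LGP2 (*Dhx58*) tunes both of them, and TLR3 reads double-stranded RNA inside endosomes. Cytosolic DNA is bound by cGAS, which makes a cyclic dinucleotide that activates STING in the endoplasmic reticulum, while ZBP1 binds nucleic acid in the left-handed Z form. The routes converge on the kinases TBK1 and IKK-epsilon (*Ikbke*), which phosphorylate IRF3 and so switch on type I interferon, and interferon in turn raises the transcription of several of the sensors. In bone, type I interferon is known for restraining osteoclast formation.

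The labelled cell type was checked against its markers and those of other cell types. Of 13 osteocyte and osteoblast markers, 7 reached at least 1 CPM (counts scaled by the library size after TMM normalisation) in every library, and the summed level ranged from 3218 to 3329 CPM without load and from 3350 to 3434 CPM under load. That sum rested largely on *Col1a1*, *Sparc*, *Cd44* and *Gja1*, each at 485 CPM or more in every library. *Pdpn*, of the same list and named by the paper as a known target of loading, was higher under load. It stood at 143 and 151 CPM without load and at 215 and 228 CPM under load (log2 fold change 0.59, adjusted p = 0.0334, edgeR). The late osteocyte genes *Sost*, *Mepe*, *Fgf23* and *Dmp1* were at or near 0, as were the osteoblast genes *Alpl* and *Bglap*. Of 8 lymphocyte markers, 6, the T-cell genes *Cd3e*, *Cd3g*, *Cd4* and *Cd8a* among them, had no count in any library, and endothelial, epithelial, muscle and fat markers summed to at most 3.89 CPM per list. Of 8 macrophage and myeloid markers, 4 reached at least 1 CPM in every library, while *Ptprc* and *Itgam* had at most 3 counts in any library. *Csf1r* stood at 1573 and 1584 CPM without load and 1558 and 1562 CPM under load and made up most of that list, whose summed level was 1633 and 1645 CPM against 1605 and 1610 CPM. *Cd14*, of the same list, stood at 52.5 and 54.7 CPM without load and at 41.6 and 44.0 CPM under load (log2 fold change -0.33, adjusted p = 0.204, edgeR). *Cd68*, also of that list, stood at 5.58 and 4.65 CPM without load and at 3.07 and 2.82 CPM under load (log2 fold change -0.80, adjusted p = 0.216, edgeR). The dendritic cell list rested on *Bst2*, itself induced by interferon, and summed to 111 and 132 CPM without load against 97.7 and 98.0 CPM under load, and the part of these cell lists in the results was not tested. In bulk samples, fewer cells of a type and less RNA per cell cannot be told apart.

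Under load 3 of the 4 RNA sensors were lower and *Cgas*, the only DNA sensor among the 10 genes, was not. Among the other RNA and DNA sensors described below, the median log2 fold changes were 0.03 and -0.06. *Dhx58*, *Zbp1*, *Ikbke*, *Ifih1* and *Ddx58* had lower counts under load, each with an edgeR adjusted p under 0.05 (quasi-likelihood F test, Benjamini-Hochberg adjustment over all 16269 tested genes), with unloaded levels between 1.63 and 3.61 times the loaded ones. *Cgas* was the only one of the 10 genes with both loaded libraries above both unloaded ones, and its difference did not pass that threshold. Downstream of the sensors, the kinase gene *Ikbke* was among the lower genes, while *Mavs*, *Tmem173* and *Tbk1* did not pass. Under the study's own threshold, an adjusted p under 0.01, the quasi-likelihood test called none of the 10 genes, where it called 0.0861% of all tested genes lower and 0.0123% higher. At an adjusted p under 0.05 there were 5 lower genes and none higher, against 0.565% and 0.338% of all tested genes. Without adjustment a p under 0.05 was reached by 5 lower genes and 1 higher gene, *Cgas*, against 7.46% and 6.88% of all tested genes. DESeq2, which the study used, called the same 5 genes lower and none higher at an adjusted p under 0.01, where it called 1.55% and 1.36% of its tested genes lower and higher. Under that threshold edgeR's exact test also called these 5 genes lower (1.08% of all tested genes lower, 0.639% higher), and robust quasi-likelihood estimation called *Ddx58*, *Dhx58* and *Ikbke* (0.283% lower, 0.0676% higher). The median log2 fold change was -0.61 over the 10 genes and -0.01 over all tested genes. The groups did not overlap in 7 of the 10 genes with loaded cells lower and in 1 with loaded cells higher, a separation seen in 24.5% and 22.1% of all tested genes.

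The 5 calls rested on 2 libraries a group. With 1 library left out and the lone library of that group assumed to vary like the other group, all 5 genes stayed under an adjusted p of 0.05 without unloaded replicate 2, and *Dhx58* and *Ikbke* without unloaded replicate 1. Without loaded replicate 1 it was *Dhx58* alone (adjusted p = 0.0499, edgeR), and without loaded replicate 2 none of the 5 stayed under it. The direction of all 5 was the same in each of these fits, which follows from their groups not overlapping. Without the filter on low counts, *Ifih1* (adjusted p = 0.0873, edgeR) and *Zbp1* (adjusted p = 0.0726, edgeR) no longer passed 0.05.

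**Figure D1:**
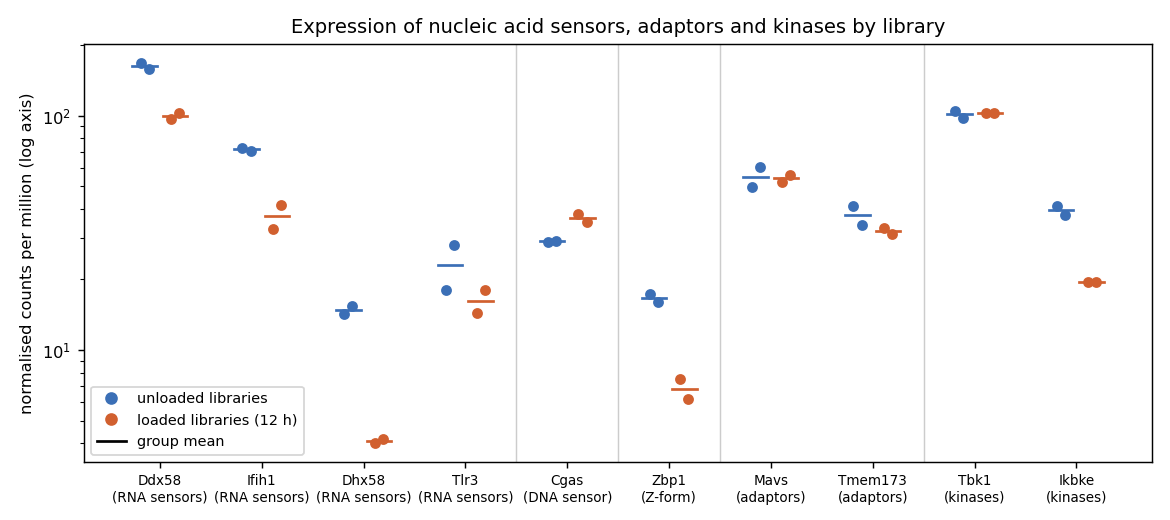
Normalised CPM on a log axis for the 10 genes in each library, grouped by role, with unloaded libraries in blue, loaded libraries in orange and a line at each group mean (n = 2 per group). The loaded points lie below the unloaded points for *Ddx58*, *Ifih1*, *Dhx58*, *Tlr3*, *Zbp1*, *Tmem173* and *Ikbke*, above them for *Cgas*, and among them for *Mavs* and *Tbk1*.

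*Ddx58* (ENSMUSG00000040296.15, chromosome 4, 40203773 to 40239828, minus strand), which encodes RIG-I, was the sensor with the highest level per length in both groups. It had 4864 and 4778 counts without load and 3116 and 3057 counts under load, or 167 and 158 against 96.6 and 103 CPM. Every loaded value lay well under every unloaded value. The mean was 163 ± 6.94 CPM (SD, n = 2) without load and 99.6 ± 4.24 CPM (SD, n = 2) under load, a log2 fold change of -0.71 (SE 0.0757; adjusted p = 0.0230, edgeR). With DESeq2 the adjusted p was 1.31e-09.

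*Ifih1* (ENSMUSG00000026896.14, chromosome 2, 62595798 to 62646255, minus strand) encodes MDA5, the sensor of long double-stranded RNA. Its level was 72.9 and 70.8 CPM without load and 32.8 and 41.6 CPM under load. The loaded replicates stood farther apart than the unloaded ones, and neither reached the unloaded range. The log2 fold change was -0.95 (SE 0.134), with an adjusted p of 0.0443 in edgeR and 3.55e-08 in DESeq2.

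The promoters were searched for the core of the interferon-stimulated response element, the DNA element bound by the interferon-activated factor ISGF3 and by IRF proteins. Promoter windows from RefSeq (GRCm38.p6, 250 bases before to 50 bases after the start) were matched by symbol for 7 of the 10 genes, *Ddx58*, *Ifih1*, *Tlr3*, *Cgas*, *Mavs*, *Tbk1* and *Ikbke*. The letters GAAANNGAAA were searched on both strands. They occurred in the windows of *Ddx58* and *Ifih1* and in 3.44% of all 32851 windows. No match was found for *Ikbke*, which was also lower, nor for *Tlr3*, *Cgas*, *Mavs* and *Tbk1*, and the lower genes *Dhx58* and *Zbp1* were not matched to a window. The gamma-activated site core TTCNNNGAA, which can overlap the former by its GAA, was found in none of the 7 windows and in 8.30% of all windows. The matches are shown with their flanks and the matched letters in capitals, in the direction of transcription. The *Ddx58* match covers positions 3 to 12 after the start and reads as the motif on the opposite strand. The *Ifih1* match covers positions 33 to 42 and reads as the motif on the transcribed gene's own strand. The 100 bases directly before the starts of *Ifih1* and of *Cgas*, the DNA sensor, are also shown. Both matches lie after the start, so these stretches hold neither of them and cannot show a contrast in the motif.
Ddx58, chr4:40239804-40239833, minus strand: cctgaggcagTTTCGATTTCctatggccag
Ifih1, chr2:62646206-62646233, minus strand: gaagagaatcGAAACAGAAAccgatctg
Ifih1 before the start, chr2:62646256-62646355, minus strand: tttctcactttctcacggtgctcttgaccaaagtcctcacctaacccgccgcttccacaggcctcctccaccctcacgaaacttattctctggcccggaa
Cgas before the start, chr9:78443238-78443337, minus strand: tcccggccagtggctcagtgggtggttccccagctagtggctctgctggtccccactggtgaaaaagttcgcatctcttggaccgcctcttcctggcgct
A match of these letters is a description of the window, and binding was not measured here.

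*Dhx58* (ENSMUSG00000017830.15, chromosome 11, 100694884 to 100704271, minus strand) encodes LGP2, the relative of RIG-I and MDA5 that lacks their signalling domains. It had 415 and 467 counts without load and 130 and 125 counts under load, or 14.3 and 15.4 against 4.03 and 4.19 CPM. This was the lowest log2 fold change of the 10 genes, at -1.85 (SE 0.165), with an adjusted p of 0.0137 in edgeR and 1.09e-08 in DESeq2, and 0.756% of all tested genes had a lower one. The unloaded mean was 3.61 times the loaded mean. Of the 3272 exonic bases of *Dhx58*, 141 are shared with *Dhx58os* on the opposite strand, which had 78 counts in all against 1137 for *Dhx58*. The strandedness of the libraries is not given in the sources used here, so reads in such shared bases cannot be assigned.

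*Tlr3* (ENSMUSG00000031639.12, chromosome 8, 45395665 to 45411080, minus strand), the endosomal sensor of double-stranded RNA, did not pass. It stood at 18.08 and 27.9 CPM without load and at 14.4 and 18.05 CPM under load. The higher loaded library was nearly level with the lower unloaded one. The log2 fold change was -0.50 (SE 0.231; adjusted p = 0.394, edgeR). It was -0.16 without unloaded replicate 2 and -0.78 without unloaded replicate 1, so its size depended on which unloaded library was kept. *Gm45542*, on the opposite strand, shares 381 of the 5207 exonic bases of *Tlr3* and had 6 counts in all.

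*Cgas* (ENSMUSG00000032344.17, chromosome 9, 78430526 to 78443237, minus strand) encodes the cytosolic DNA sensor. It had 843 and 881 counts without load and 1222 and 1043 counts under load, or 29.03 and 29.07 against 37.9 and 35.0 CPM. Both loaded libraries lay above both unloaded ones. The log2 fold change was 0.33 (SE 0.0990), with an adjusted p of 0.222 in edgeR and 0.290 in DESeq2, and with 1 library left out it lay between 0.27 and 0.38. The gene shares 201 of its 4126 exonic bases with *Gm8093* on the opposite strand, which had 0 counts.

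*Zbp1* (ENSMUSG00000027514.14, chromosome 2, 173206612 to 173218923, minus strand), the sensor of Z-form nucleic acid that can start necroptosis through RIPK3, was lower. Its level was 17.4 and 16.1 CPM without load and 7.50 and 6.17 CPM under load. The log2 fold change was -1.29 (SE 0.168), with an adjusted p of 0.0374 in edgeR and 5.62e-05 in DESeq2, and the unloaded mean was 2.44 times the loaded mean. *Ripk3* itself had 0 counts in every library, where 3 counts correspond to between 0.0932 and 0.104 CPM and cover counting error only.

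The adaptors of the RNA and DNA routes did not pass in either direction. *Mavs* (ENSMUSG00000037523.13, chromosome 2, 131234063 to 131248025, plus strand) had 49.7 and 60.1 CPM without load and 51.9 and 56.0 CPM under load. The loaded values lay inside the unloaded range, with a log2 fold change of -0.03 (SE 0.123; adjusted p = 0.955, edgeR) whose sign depended on the libraries kept. *Tmem173* (ENSMUSG00000024349.10, chromosome 18, 35733679 to 35740554, minus strand), which encodes STING, had 41.3 and 34.1 CPM without load and 33.0 and 31.3 CPM under load. Its groups did not overlap, but the gap between them was smaller than the difference between the unloaded replicates. The log2 fold change was -0.23 (SE 0.124; adjusted p = 0.467, edgeR), and -0.08 without unloaded replicate 1. The RPKM ratio of *Mavs* to *Tmem173* was 0.987 and 1.45 without load and 1.29 and 1.47 under load, so the groups overlapped.

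Of the kinases, *Ikbke* was lower under load and *Tbk1* was not. *Ikbke* (ENSMUSG00000042349.13, chromosome 1, 131254343 to 131279606, minus strand), which encodes the inducible kinase IKK-epsilon, had 41.3 and 37.8 CPM without load and 19.4 and 19.6 CPM under load. Its loaded replicates were nearly equal, and the unloaded mean was 2.03 times the loaded mean, a log2 fold change of -1.02 (SE 0.103), with an adjusted p of 0.0207 in edgeR and 2.22e-07 in DESeq2. It shares 159 of its 9018 exonic bases with *Gm28914* and 65 with *Gm28913*, both on the opposite strand, which had 19 and 23 counts in all against 3557. *Tbk1* (ENSMUSG00000020115.3, chromosome 10, 121546455 to 121586787, minus strand), the kinase present in most cells, had 105 and 97.4 CPM without load and 102.6 and 102.9 CPM under load. The log2 fold change of *Tbk1* was 0.02 (SE 0.0782; adjusted p = 0.928, edgeR), with the loaded values between the unloaded ones. The difference of the log2 fold changes, *Ikbke* minus *Tbk1*, was -1.04 (standard error 0.129, taken from both genes as independent) and lay between -1.05 and -1.03 with 1 library left out.

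**Figure D2:**
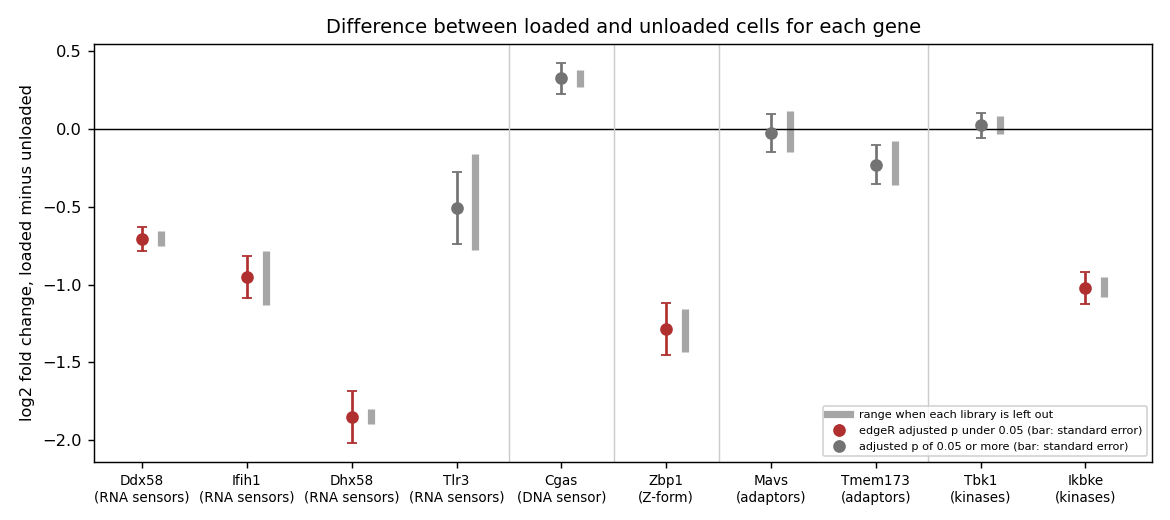
Log2 fold change, loaded minus unloaded, for the 10 genes from edgeR's quasi-likelihood fit (points, with bars of 1 standard error, red for an adjusted p under 0.05) and the range over the fits with 1 library left out (grey bars). The red points run from -0.71 for *Ddx58* to -1.85 for *Dhx58*, while the grey bars of *Mavs* and *Tbk1* cross 0.

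Relative to *Cgas*, each RNA sensor had a lower level per length under load. Levels are given per length as RPKM (CPM per kilobase of merged exons in GENCODE M21) where genes are compared with each other. The ratio of *Ddx58* to *Cgas* was 3.38 and 3.17 without load and 1.49 and 1.72 under load. For *Ifih1* the ratio was 1.27 and 1.23 without load and 0.437 and 0.600 under load. Per length, *Ifih1* thus stood above *Cgas* in both unloaded libraries and below it in both loaded ones. In CPM, *Ifih1* stood at 32.8 against 37.9 for *Cgas* in loaded replicate 1 and at 41.6 against 35.0 in loaded replicate 2. The ratio of *Dhx58* to *Cgas* was 0.621 and 0.668 without load and 0.134 and 0.151 under load. For *Tlr3* it was 0.493 and 0.762 against 0.302 and 0.409, and for *Zbp1* it was 0.699 and 0.646 against 0.232 and 0.206. None of these ratios overlapped between the groups, which follows from each sensor lying lower and *Cgas* higher without overlap.

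As differences of fitted log2 fold changes, sensor minus *Cgas*, the values were -1.03 (standard error 0.125) for *Ddx58*, -1.28 (0.167) for *Ifih1*, -2.18 (0.193) for *Dhx58*, -0.83 (0.252) for *Tlr3* and -1.62 (0.195) for *Zbp1*, each standard error again treating both genes as independent. All 5 differences share the same *Cgas* values. The mean log2 CPM of the 4 RNA sensors minus the log2 CPM of *Cgas* was 0.54 and 0.69 without load and -0.87 and -0.55 under load. The difference in this contrast was -1.32 between the group means, against an SD between replicates of 0.106 without load and 0.224 under load (n = 2 each). It was -0.51 when *Zbp1* was counted beside *Cgas*. An exact two-sided permutation test of 2 against 2 libraries cannot go below p = 0.333, and no p is given for the contrast.

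**Figure D3:**
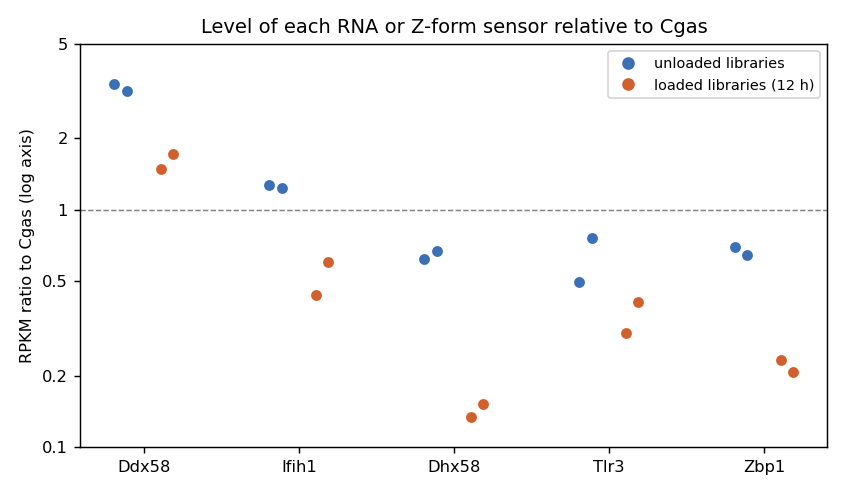
RPKM of each RNA or Z-form sensor divided by that of *Cgas* in the same library, on a log axis, with unloaded libraries in blue and loaded libraries in orange. The dashed line marks equal levels, which *Ifih1* crosses from 1.27 and 1.23 to 0.437 and 0.600.

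The makeup of the sensor pool differed between the groups. The summed level of the 4 RNA sensors was 40.5 and 41.1 RPKM without load and 21.7 and 24.4 RPKM under load. *Ddx58* made up between 54.4% and 63.1% of that sum in all 4 libraries, whereas *Dhx58* made up 10.8% and 11.5% without load and 5.67% and 5.26% under load. Among all 6 sensors, *Zbp1* and *Cgas* included, *Cgas* was 13.41% and 13.37% of the summed RPKM without load and 27.8% and 24.5% under load. That sum was itself lower under load, at 33.0 and 34.6 RPKM against 52.5 and 52.7 RPKM without load, so the share also reflects the other sensors. *Ikbke* was 14.6% and 14.4% of the summed RPKM of both kinases without load and 7.59% and 7.63% under load, with *Tbk1* the remainder.

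Within the RIG-I-like family the sensors were not lower by equal amounts. The ratio of *Dhx58* to *Ddx58* in RPKM was 0.184 and 0.211 without load and 0.0899 and 0.0881 under load, a difference of log2 fold changes of -1.14 (standard error 0.182). The ratio of *Ifih1* to *Ddx58* was 0.376 and 0.388 without load and 0.293 and 0.350 under load, a difference of -0.24 (standard error 0.154), which is less than 2 standard errors.

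By level per length, the order in unloaded cells was *Tbk1* (25.8 ± 1.31 RPKM, SD, n = 2), *Ddx58* (23.1 ± 0.985), *Mavs* (16.4 ± 2.18), *Tmem173* (13.7 ± 1.87), *Ifih1* (8.80 ± 0.183), *Cgas* (7.04 ± 0.00759), *Zbp1* (4.74 ± 0.257), *Dhx58* (4.54 ± 0.242), *Tlr3* (4.42 ± 1.34) and *Ikbke* (4.39 ± 0.269). The replicate ranges of *Mavs* and *Tmem173* overlapped, as did those of neighbours among the 4 lowest genes. Under load *Tbk1* (26.3 ± 0.0519 RPKM), *Mavs* (16.1 ± 0.857), *Ddx58* (14.1 ± 0.602) and *Tmem173* (11.7 ± 0.448) were followed by *Cgas* (8.83 ± 0.493), *Ifih1* (4.55 ± 0.763), *Tlr3* (3.12 ± 0.494), *Ikbke* (2.16 ± 0.0127), *Zbp1* (1.94 ± 0.266) and *Dhx58* (1.26 ± 0.0357), and no neighbours overlapped. *Ddx58* moved below *Mavs* and *Ifih1* below *Cgas* in the loaded order. Merged exon length includes exons that these cells may not use. This affects levels, orders and shares between genes, but not the fold change of a gene or of a ratio to another gene.

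Around these 10 genes, 131 other genes of the sensing routes were examined in 8 lists, of which 114 were tested. At an edgeR adjusted p under 0.05, 4 were lower, *Irf7*, *Cxcl10*, *Ddx60* and *Ccl5*, and 1 was higher, *Map3k7*, where 0.565% and 0.338% of all tested genes were called. At an adjusted p under 0.01, *Cxcl10* was lower and none was higher, where 0.0861% and 0.0123% of all tested genes were called. DESeq2 called 8 lower and 3 higher at an adjusted p under 0.01, the latter being *Map3k7*, *Ddx21* and the helicase gene *Ddx3x*, against 1.55% lower and 1.36% higher among all genes it tested. Without adjustment, a p under 0.05 was reached by 18 lower and 12 higher genes of the 114, against 7.46% and 6.88% of all tested genes, and the counts of single lists given next are to be read against these shares. The median log2 fold change over the 114 genes was -0.02. The calls depended on the libraries kept. *Cxcl10* was no longer under 0.01 without loaded replicate 1 (adjusted p = 0.0342, edgeR), without loaded replicate 2 (adjusted p = 0.0376, edgeR) or without the filter on low counts (adjusted p = 0.0182, edgeR), but stayed under 0.05. *Irf7* passed 0.05 in these fits except without loaded replicate 2 (adjusted p = 0.0632, edgeR). *Ddx60*, *Map3k7* and *Ccl5* missed 0.05 without the filter and without either loaded replicate, with edgeR adjusted p up to 0.142, 0.119 and 0.147. *Ddx60* also missed it without unloaded replicate 1 (adjusted p = 0.0529, edgeR) and *Ccl5* without unloaded replicate 2 (adjusted p = 0.0733, edgeR).

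Other RNA sensors gave 1 lower gene among 14 tested, and the median log2 fold change was 0.03. It was positive in 8 and negative in 6 of them, and 4 higher and 2 lower genes had an unadjusted p under 0.05. *Ddx60*, a helicase described as a partner of RIG-I, had 21.2 and 15.6 CPM without load and 6.82 and 5.40 CPM under load (log2 fold change -1.59, adjusted p = 0.0393, edgeR). *Eif2ak2*, which encodes the RNA-activated kinase PKR, differed by -0.55 in log2 (adjusted p = 0.0812 in edgeR and 0.00029 in DESeq2). *Ddx21*, a helicase of ribosome synthesis, differed by 0.37 in log2 (adjusted p = 0.0542 in edgeR and 7.19e-05 in DESeq2).

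Other DNA sensors gave no call among 11 tested genes. Their median log2 fold change was -0.06, and without adjustment 2 had a p under 0.05 with loaded cells lower and 1 with loaded cells higher. *Ifi204*, a DNA-binding PYHIN protein induced by interferon, had the smallest p, with 127 and 110 CPM without load and 75.0 and 90.3 CPM under load (log2 fold change -0.52, adjusted p = 0.142 in edgeR and 0.00269 in DESeq2). *Prkdc*, the catalytic subunit of the DNA-dependent protein kinase, differed by -0.29 in log2 (adjusted p = 0.242, edgeR), and *Lrrfip1* by 0.23 (adjusted p = 0.209, edgeR). *Tlr9*, the endosomal DNA sensor, had 0 counts in every library, and *Aim2*, the inflammasome DNA sensor, had at most 12.

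Regulators of the RIG-I-like receptors and MAVS gave no call among 21 tested genes, and 3 had an unadjusted p under 0.05 with loaded cells lower and 2 with loaded cells higher. Their log2 fold changes lay between -0.34 and 0.25. *Trim25*, the ubiquitin ligase that activates RIG-I, had 191 and 180 CPM without load and 158 and 161 CPM under load (log2 fold change -0.22, adjusted p = 0.228, edgeR). *Trim65*, a ligase acting on MDA5, differed by -0.34 in log2 (adjusted p = 0.222, edgeR) and shares 225 of its 5883 exonic bases with *Trim47* on the same strand. *Mfn2*, a mitochondrial fusion protein that binds MAVS, differed by 0.25 in log2 (adjusted p = 0.180, edgeR).

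Regulators of cGAS and STING gave no call at an adjusted p under 0.05 among 19 tested genes, with a median of -0.02, and 2 in each direction had an unadjusted p under 0.05. *Usp18*, which removes ISG15 and restrains interferon signalling, had 9.02 and 7.72 CPM without load and 2.48 and 3.15 CPM under load (log2 fold change -1.57, adjusted p = 0.0510 in edgeR and 0.00109 in DESeq2). It shares 124 of its 2790 exonic bases with *Gm44148* on the opposite strand, which had 81 counts in all against 670. *Zdhhc1*, an enzyme described as a partner of STING, differed by -0.62 in log2 (adjusted p = 0.232, edgeR), and *Slc19a1*, the reduced folate carrier, by 0.35 (adjusted p = 0.226, edgeR).

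Nucleases and other genes that limit the cell's own nucleic acid gave no call among 16 tested genes, with a median of -0.03, and 1 gene had an unadjusted p under 0.05. It was *Dnase2a*, the lysosomal DNase, with 3.93 and 7.00 CPM without load and 15.2 and 10.3 CPM under load (log2 fold change 1.22, standard error 0.328, adjusted p = 0.180, edgeR). It shares 1616 of its 5389 exonic bases with *Mast1* on the opposite strand, which had 15 counts against 1124. *Atm* (log2 fold change -0.15, adjusted p = 0.448, edgeR) and *Skiv2l*, the helicase of the cytosolic RNA exosome (log2 fold change -0.20, adjusted p = 0.507, edgeR), had the next smallest p.

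Shared adaptors and kinase scaffolds gave 1 higher gene among 20 tested, with a median of -0.03. *Map3k7*, which encodes the kinase TAK1 that acts upstream of NF-kB, had 104 and 79.9 CPM without load and 189 and 183 CPM under load (log2 fold change 1.02, adjusted p = 0.0369 in edgeR and 1.42e-13 in DESeq2). *Unc93b1*, which carries endosomal Toll-like receptors to their compartment, differed by -0.64 in log2 (adjusted p = 0.129, edgeR), and *Traf2* by -0.33 (adjusted p = 0.242, edgeR). Partners of ZBP1 gave no call among 4 tested genes, with 1 unadjusted p under 0.05, that of *Casp8* (log2 fold change -0.30, adjusted p = 0.252, edgeR). *Ripk1* differed by -0.22 in log2 (adjusted p = 0.720, edgeR) and *Cflar* by 0.04 (adjusted p = 0.863, edgeR), and the sign of both depended on the libraries kept. *Ripk1* shares 241 of its 8344 exonic bases with *Serpinb6a* on the opposite strand, which had 37335 counts against 5658.

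The outputs of the sensing routes held 3 of the 4 lower genes, among 9 tested, and their median log2 fold change was -0.44. Without adjustment 5 lower genes and 1 higher gene had a p under 0.05, the latter being the cytokine gene *Il6*, with 0.792 and 1.09 CPM without load and 2.29 and 1.78 CPM under load (log2 fold change 1.11, adjusted p = 0.288, edgeR). *Cxcl10*, a chemokine that TBK1 signalling and interferon both induce, had 50.9 and 52.4 CPM without load and 17.3 and 18.5 CPM under load (log2 fold change -1.53, standard error 0.0993, adjusted p = 0.00813, edgeR). *Irf7*, the interferon-inducible relative of IRF3, had 17.6 and 17.5 CPM without load and 5.76 and 4.63 CPM under load (log2 fold change -1.75, adjusted p = 0.0197, edgeR). It shares 45 of its 3776 exonic bases with *Phrf1* on the opposite strand, which had 8518 counts against 1366. *Ccl5*, a chemokine, differed by -0.83 in log2 (adjusted p = 0.0405, edgeR). *Ifnb1* had 8 and 31 counts without load and 4 and 0 counts under load and did not pass the filter on low counts.

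**Figure D4:**
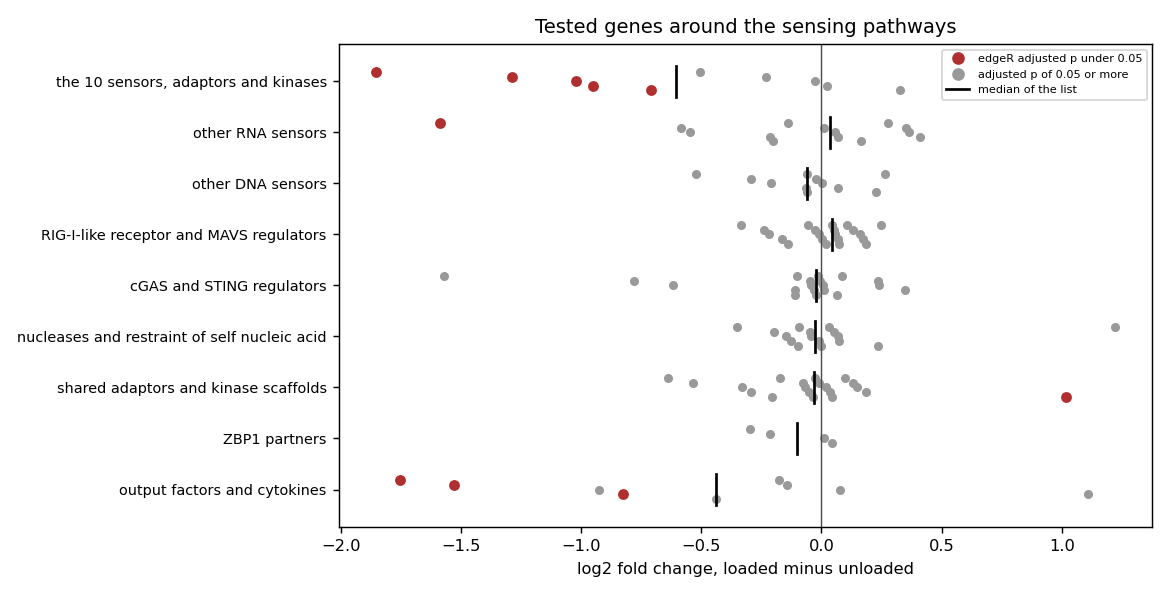
Log2 fold change, loaded minus unloaded, of each tested gene in the 8 lists of the sensing routes and of the 10 sensors, adaptors and kinases, with the list median as a black line and genes with an edgeR adjusted p under 0.05 in red. The medians of the 10 genes (-0.61) and of the outputs (-0.44) lie left of 0, and the red point to the right is *Map3k7* (1.02).

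Genes with a profile most like that of *Ddx58* were found by the Euclidean distance between log2 CPM values centred on their mean over the 4 libraries, among 13314 tested genes with a mean of at least 1 CPM. The nearest was *Nmt2*, an N-myristoyltransferase, at a distance of 0.0310, with 130 and 119 CPM without load and 73.1 and 78.3 CPM under load. It was followed by *Tmem229b* (distance 0.0552), *2010001A14Rik* (0.0571), *Irgm1*, an immunity-related GTPase (0.0714), and *Mterf1b* (0.0744). Nearest to *Cgas* were *2010111I01Rik* (distance 0.0166), *4933407K13Rik* (0.0234), *Tmsb4x*, the actin-binding thymosin beta gene (0.0236), *Klf13* (0.0242) and *Degs1* (0.0249).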

How the data were processed

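Total RNA of 2 unloaded and 2 loaded cultures was sequenced. Per the paper's methods and the submitters' processing notes, after adapter and quality trimming the authors used HISAT2 2.1.0 for alignment to mm10, StringTie 1.3.5 for assembly and prepDE for whole-number gene counts, so that the deposited counts are raw and come from assembled coverage. The annotation release and strandedness are not given in the sources used here. All 55450 identifiers, with their versions, are in GENCODE M21 (GRCm38), which supplied coordinates and exon lengths.

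Genes were filtered with filterByExpr (count minimum 10), normalised by TMM and tested with edgeR 4.0.16 (quasi-likelihood F test, R 4.3.3), adjusting over all 16269 tested genes. The threshold was 0.01, as in the study, and 0.05 was an alternative. The standard error is the log2 fold change divided by the square root of F. Log2 CPM used a prior count of 2. DESeq2 1.42.0, limma-voom (limma 3.58.1), edgeR's exact test, robust estimation, other factors and filters, the replicate block and each library left out were alternatives. RPKM is TMM-normalised CPM per kilobase of merged exons. The test was run on simulated counts only as a check of the code, and no error rate is taken from it.

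The genes, lists and tests were chosen with earlier results of these data known. All 10 sensors, adaptors and kinases are named. Of each other list, the text names genes that passed 0.01 and up to 3 with the smallest p, then the 5 genes nearest in profile to *Ddx58* and to *Cgas*, *Ifnb1*, and marker genes. *Ripk3*, *Tlr9*, *Aim2*, *Ddx3x* and *Il6* were named after their values were seen.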

Additional observations from a re-analysis of the deposited data

How the results depend on the processing

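At an adjusted p under 0.01, 0 of the 10 genes were called lower with the main test, 5 with DESeq2, 5 with edgeR's exact test, 3 with robust estimation and 5 when the threshold was 0.05. The count stayed at 0 with limma-voom, other factors, other filters, the replicate block and each library left out, and no setting called any of the 10 genes higher. Among the other genes of the sensing routes, 1 was called lower with the main test, 8 with DESeq2, 6 with the exact test, 2 with robust estimation, 0 without a filter on low counts, 0 with the replicate block, 4 at a threshold of 0.05, and 0 to 2 with each library left out. None was called higher with the main test, 3 with DESeq2, 1 with the exact test, 1 at a threshold of 0.05, and 0 to 1 with each library left out.

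At an adjusted p under 0.05, 5 of the 10 genes passed with the main test, 3 without a filter on low counts (*Ddx58*, *Dhx58* and *Ikbke*) and 2 with the replicate block (*Dhx58*, adjusted p = 0.0332, and *Ikbke*, adjusted p = 0.0419), while *Ddx58* (0.0716), *Ifih1* (0.0810) and *Zbp1* (0.0716) did not pass with it. With the block *Cxcl10* had an adjusted p of 0.0168 and *Ccl5* did not pass 0.05. The block moved the number of all tested genes that passed 0.05 from 147 to 62. The labels do not say whether libraries of the same replicate number were handled together. Libraries of the same number deviated from their group means with a correlation of -0.057 across tested genes.

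The difference in the RNA sensor contrast against *Cgas* was -1.32, -1.04 with the median over the RNA sensors and -0.51 with *Zbp1* beside *Cgas*. It ranged from -1.48 to -1.16 with each library left out. With each library left out, signs turned in 4 genes: *Mavs* ranged from -0.15 to 0.12 (0.03 without loaded replicate 1, 0.12 without unloaded replicate 2), *Tbk1* from -0.028 (without unloaded replicate 2) to 0.084, *Ripk1* from -0.62 to 0.10 (without loaded replicate 1) and *Cflar* from -0.040 (without unloaded replicate 2) to 0.14. The cause was not tested. The other tested genes named here from the routes, whose groups did not overlap, kept their direction in every fit. The difference of *Cgas* passed in no fit. With 2 libraries a group, its adjusted p ran from 0.192 (edgeR, at least 10 counts in every library) to 0.399 (edgeR, no filter on low counts). *Ifnb1* was removed by the filter on low counts.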
